A study of Mus musculus with 32 samples.

Results

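The comparison described here was that of lymphoid-primed multipotent progenitors (MPP4) with common lymphoid progenitors (CLP) sorted from the bone marrow of aged mice, 20 months old. Its members were set by their labels: of the 32 RNA-seq libraries of the series, the 2 libraries of MPP4 and the 2 libraries of CLP taken at 20 months, that is 4 of 32. The comparison itself was chosen with earlier results of these data known. The series profiled hematopoietic stem cells, multipotent and committed progenitors of female C57BL/6 wild-type mice at 10 weeks (young) and 20 months (aged), with 2 libraries for each of 8 populations at each age, and no genetic change or treatment separated the groups used here. By their labels MPP4 were Flt3+, CD48+, CD34+ and CD150- cells within the Lin-, IL-7-, c-kit+ and Sca-1+ fraction. CLP were labelled IL-7+ and Lin- with low Sca-1 and low c-kit. IL-7 here stands for the IL-7 receptor α chain, as the study's methods give it. The 2 libraries of young MPP4 and the 2 of young CLP were used to ask whether the step from MPP4 to CLP was of the same size at both ages. According to the study's methods, cells of each age were pooled before duplicate sorts, while its notes elsewhere call the duplicates independent. The p-values below may therefore measure only the spread between sorts of 1 pool. In bulk RNA of sorted cells, fewer cells of a type and less RNA per cell cannot be told apart.

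MPP4 are Flt3-expressing multipotent progenitors that have largely lost megakaryocyte and erythroid potential and give rise to both lymphoid and myeloid cells. CLP arise from them, carry the IL-7 receptor and give rise to B cells, T cells, innate lymphoid cells and a share of dendritic cells. B-lineage entry within CLP depends on the transcription factors E2A (Tcf3), EBF1 and FOXO1 and on IL-7 receptor signalling. The recombinase encoded by Rag1 and Rag2 assembles the immunoglobulin heavy chain gene. Its product pairs with the surrogate light chain to form the pre-B cell receptor.

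The deposited counts summed to 13489226 and 13855471 reads over genes in the aged MPP4 libraries and to 14011071 and 13983503 in the aged CLP libraries, inside the range of 11237384 to 17723245 over all 32 libraries. Counts were tested with edgeR over 14154 genes, and a gene was called at a Benjamini-Hochberg adjusted p under 0.01. Levels are given as CPM, counts scaled to library size with TMM factors, always as replicate 1 and then replicate 2, and fold changes are log2 of aged CLP over aged MPP4 with their standard errors. In this scale 3 counts in an aged library corresponded to 0.217 to 0.232 CPM, which is the floor used for genes with no reads, and intervals and floors cover counting error only.

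The aged CLP duplicates differed more from each other than the other duplicates used here. Taken over the tested genes, duplicates differed on the log2 scale by a root mean square of 0.617 in aged CLP, compared with 0.471 in aged MPP4, 0.519 in young MPP4 and 0.535 in young CLP, and it was 1.44 to 1.56 between an aged MPP4 and an aged CLP library. Among genes at 20 CPM or more, the aged CLP replicate 1 was higher than replicate 2 for 7 of 8 dendritic cell markers (median log2 ratio 0.59), for 3 of 3 neutrophil markers (0.81) and for 19 of 23 immediate early and heat shock genes (0.38). Replicate 2 was higher for 4 of 5 platelet markers (median log2 ratio -0.86), for 39 of 39 S phase genes (-0.23) and for 50 of 53 G2/M genes (-0.31). For genes of the pre-B cell receptor the median log2 ratio was 0.04, close to the 0.02 of all genes. These gene groups are therefore given with both libraries, and with the value without a library where it mattered.

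**Figure D1:**
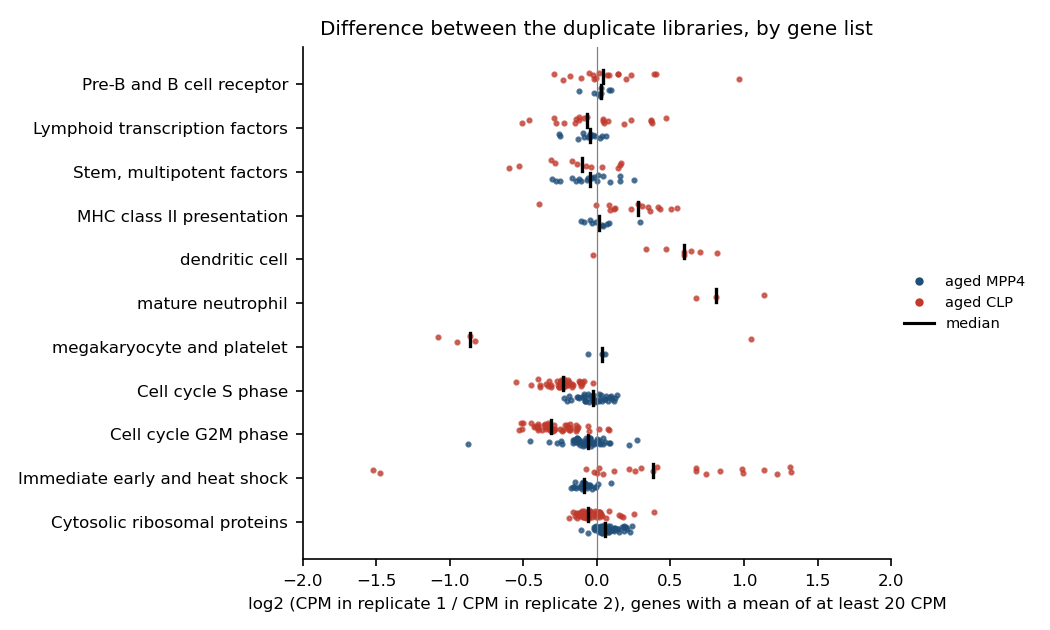
Log2 ratio of replicate 1 over replicate 2 (x axis) for members of 11 gene lists (y axis), restricted to members averaging 20 CPM or more, in aged MPP4 (blue) and aged CLP (red), with the median of each list as a black bar. The aged MPP4 medians lie close to 0, whereas in aged CLP the dendritic cell (0.59) and neutrophil (0.81) markers were higher in replicate 1 and the platelet markers (-0.86) were higher in replicate 2.

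The antigens used for sorting were examined first. The IL-7 receptor gene Il7r (ENSMUSG00000003882, chr15:9505788-9530176 on the minus strand, GRCm38) was measured at 5.42 and 6.72 CPM in aged MPP4 and 201 and 190.0 CPM in aged CLP. The groups did not overlap, and Il7r rose by 5.01 ± 0.269 SE, adjusted p = 1.19e-10. Kit, encoding the stem cell factor receptor by which both populations were gated, was at 596 and 587 CPM in aged MPP4 and 73.6 and 97.3 CPM in aged CLP and fell (-2.79). Cd34 was at 1454 and 1489 CPM in aged MPP4 and 313 and 437 CPM in aged CLP and fell as well (-1.97). Flt3, the receptor of the FLT3 ligand, was at 682 and 782 CPM in aged MPP4 and 675 and 742 CPM in aged CLP, and these ranges overlapped (-0.05 ± 0.163 SE, adjusted p = 0.846). Ly6a, which encodes Sca-1, was not called in aged mice although CLP were gated as Sca-1 low. It was at 209 and 208 CPM in aged MPP4 and 221 and 207 CPM in aged CLP (0.03 ± 0.464 SE, adjusted p = 0.989), with overlapping ranges, whereas in young mice it was at 151 and 177 CPM in young MPP4 and 34.4 and 35.9 CPM in young CLP and fell (-2.22). The difference between the ages in this step, 2.25 ± 0.682, did not pass the threshold (adjusted p = 0.0168).

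Of the 14154 genes tested, 40.5% were called between aged CLP and aged MPP4, 2674 (18.9%) higher and 3054 (21.6%) lower in CLP. At least 2-fold changes among these were seen for 1362 genes higher (9.62%) and 1241 lower (8.77%). The median log2 fold change over all tested genes was -0.002, a value that TMM scaling holds near 0, and the changes below are relative to it. The counts of list members given below are to be read against these shares. The libraries of aged CLP and aged MPP4 did not overlap for 10732 of the tested genes (75.8%) and for 5724 of the 5728 called. A lack of overlap, where stated, is thus shared by nearly all called genes. Ranked by the share of members called higher, the pre-B cell receptor (17 of 21), dendritic cell marker (8 of 10), neutrophil marker (8 of 10) and MHC class II (12 of 15) lists came first. With the DESeq2 test the neutrophil (9 of 10) and class II (13 of 15) lists had higher shares than the pre-B cell receptor list (13 of 21). Ranked by the share called lower, the cytosolic ribosomal proteins (46 of 54), glycolysis (15 of 21), immediate early and heat shock genes (22 of 31) and stem cell transcription factors (20 of 30) came first.

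**Figure D2:**
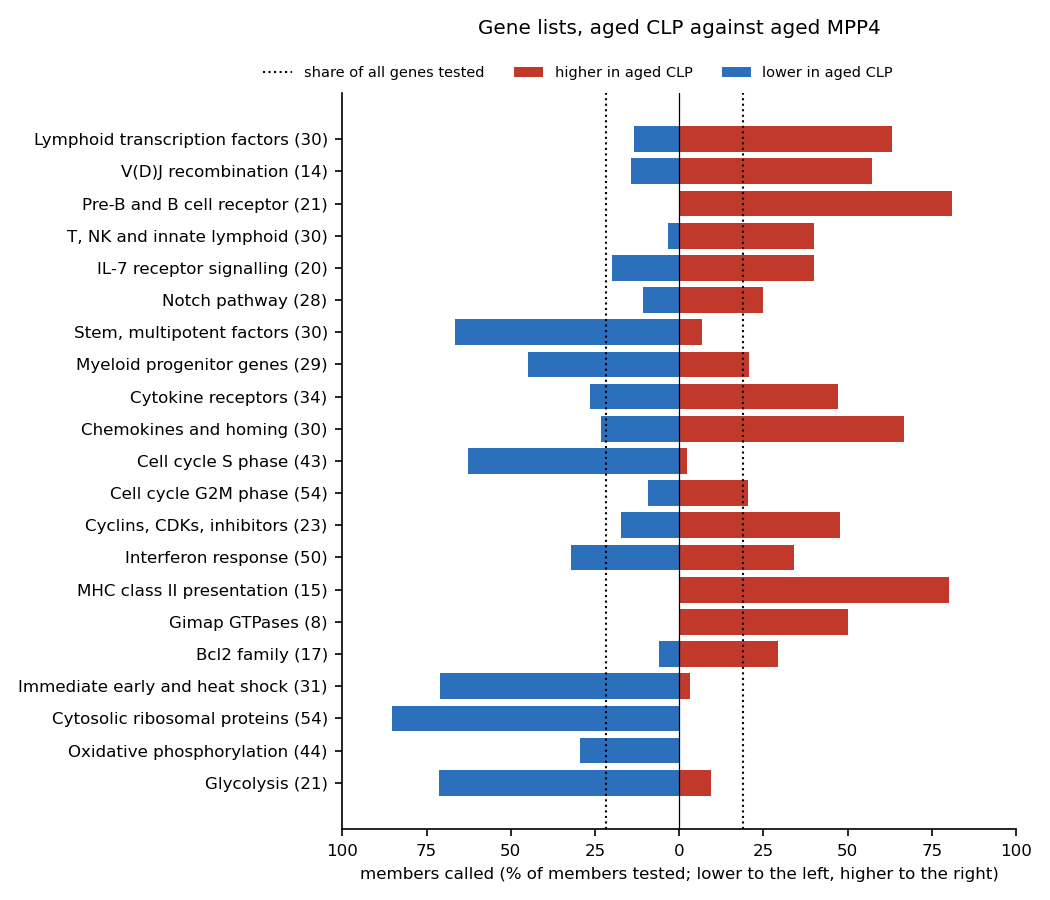
Percent of the tested members of each gene list (y axis) called higher (to the right) or lower (to the left) in aged CLP than in aged MPP4 at adjusted p under 0.01, with dotted lines at the shares over all genes, 18.9% higher and 21.6% lower. The lists of cell type markers and of sort antigens are not drawn. The pre-B cell receptor and MHC class II lists stand far to the right and the ribosomal, glycolytic, immediate early and stem cell lists far to the left.

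By fitted fold change the 12 genes with the largest rises were all without a read in both aged MPP4 libraries. The fitted value of such a gene depends on the prior count, so their order is not a result, and their fold is given as a lower bound against 3 counts per library. They were genes of B-lineage cells, of dendritic cells and others. Cd79a, encoding the Igα signalling chain of the B cell receptor (chr7:24897381-24902197, plus strand), had 5353 and 5587 counts (413 and 415 CPM) in aged CLP, at least 1886-fold higher. Igll1, the λ5 component of the surrogate light chain, had 286 and 290.01 CPM (at least 1311-fold), and Lef1, a transcription factor of the Wnt pathway, 105 and 102 CPM (at least 472-fold). In each of these 3 genes the CLP duplicates lay close together. Klk1, a kallikrein peptidase expressed by plasmacytoid dendritic cells, had 504 and 310.4 CPM (at least 1853-fold), and the C-type lectins Cd209a and Cd209d had 219.6 and 125 CPM (at least 784-fold) and 129 and 62.3 CPM (at least 436-fold). Here replicate 1 was higher than replicate 2 each time. The same held for Klra17, a Ly49 family receptor (116 and 74.97 CPM, at least 435-fold), for Upb1, an enzyme of pyrimidine breakdown (149.8 and 101 CPM, at least 570-fold), and for Prg2, the eosinophil major basic protein (216 and 69.9 CPM, at least 650-fold). The collagen receptor Ddr1 (235 and 137 CPM, at least 846-fold) and the membrane protein Plxdc1 (131 and 92.5 CPM, at least 509-fold) were also in the group. With the Wald test of DESeq2 5 of these 12 were not called, namely Klk1 (adjusted p = 0.114), Cd209a (0.151), Upb1 (0.167), Cd209d (0.18) and Klra17 (0.181), and the other 7 were.

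The 12 genes with the largest falls held collagen genes, immediate early genes and others. Ptgs2, encoding the inducible cyclooxygenase COX-2, was at 42.3 and 44.1 CPM in aged MPP4 and 0.309 and 0 CPM in aged CLP (-8.07 ± 0.424, SE). The transcription factors Atf3, Nr4a1 and Egr1 belong to the immediate early genes, as does Ier3 (-5.31). Atf3 was at 47.6 and 52.8 CPM in MPP4 and 0.386 and 0.669 CPM in CLP (-6.54). Nr4a1 was at 658 and 743 CPM in MPP4 and 10.2 and 5.05 CPM in CLP (-6.53). Egr1 was at 1514 and 1631 CPM in MPP4 and 29.5 and 31.1 CPM in CLP (-5.70). In all 5 genes both aged CLP libraries were at least 20 times below both MPP4 libraries. Nkx2-3, a homeobox factor, was at 37.6 and 39.2 CPM in MPP4 and 0.618 and 0.52 CPM in CLP (-6.06). The lipoprotein receptor Vldlr was at 125 and 127 CPM in MPP4 and 2.16 and 1.86 CPM in CLP (-5.96). Aged CLP was again low in both libraries. The scavenger receptor Scarf1 was at 43.9 and 41.4 CPM in MPP4 and 0.309 and 1.41 CPM in CLP (-5.60). Myct1, a gene of hematopoietic stem cells and endothelium, was at 47.03 and 46.6 CPM in MPP4 and 0.927 and 1.19 CPM in CLP (-5.45). Col16a1 was at 57.9 and 57.5 CPM in MPP4 and 0 and 0.223 CPM in CLP and rested on 3 counts in aged CLP, a log2 ratio of -8.99 with a 95% counting interval of -11.27 to -7.44. The type IV collagen genes Col4a1 (70.8 and 62.4 CPM in MPP4 and 0 and 1.26 CPM in CLP) and Col4a2 (59.1 and 60.1 CPM in MPP4 and 0.232 and 0 CPM in CLP, a log2 ratio of -9.04 with a 95% counting interval of -11.31 to -7.49) start head to head and overlap on chromosome 8, and since strand use in the counting is not stated their reads may not be fully separable.

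Of 30 lymphoid transcription factors tested, 19 were called higher and 4 lower in aged CLP, with a median log2 fold change of 1.46 (1.37 with genes at 0 set to their bound), and without aged CLP replicate 1 the number lower was 2. Factors that specify the B lineage had some of the largest rises. Ebf1, a pioneer factor of that lineage, was at 0.223 and 0 CPM in aged MPP4 and 61.2 and 66.7 CPM in aged CLP. MPP4 thus carried 3 reads in all, and the log2 ratio was 9.19 with a 95% counting interval of 7.64 to 11.47. Pou2af1, the coactivator OCA-B, was at 0 and 0.217 CPM in MPP4 and 136 and 149.9 CPM in CLP, again with 3 reads in MPP4 (log2 ratio 10.35 with a 95% counting interval of 8.80 to 12.62), and Pax5, which commits cells to the B lineage, was at 0 and 0 CPM in MPP4 and 3.24 and 3.57 CPM in CLP, at least 15.5-fold higher although its level stayed low (adjusted p = 0.000552 with edgeR, but 0.189 with DESeq2). The partners of EBF1 were already present in MPP4 and rose less. Tcf3 was at 387 and 412 CPM in MPP4 and 622 and 660.4 CPM in CLP (0.68 ± 0.0982 SE, adjusted p = 5.35e-06). Foxo1 was at 27.7 and 27.1 CPM in MPP4 and 113 and 107 CPM in CLP (2.00 ± 0.126 SE, adjusted p = 2.19e-11). No library of either group overlapped with the other group for these genes, as for 75.8% of all genes tested. Factors of dendritic and lymphoid differentiation also rose: Irf8 (chr8:120736358-120756694, plus strand) was at 98.96 and 102 CPM in MPP4 and 5307 and 4119.7 CPM in CLP (5.55 ± 0.148 SE, adjusted p = 5.1e-17). Spib was at 0 and 0.289 CPM in MPP4 and 937 and 678 CPM in CLP (12.34). Tcf4, the E protein of plasmacytoid dendritic cells, was at 161 and 176 CPM in MPP4 and 871 and 670.4 CPM in CLP (2.19). All 3 were higher in CLP replicate 1 than in replicate 2. Tcf7, encoding TCF-1, was at 2.67 and 2.02 CPM in MPP4 and 22.3 and 30.8 CPM in CLP (3.50), whereas Gata3, at 20.1 and 21.3 CPM in MPP4 and 9.42 and 11.7 CPM in CLP (-0.97), and Ikzf2, at 15.4 and 11.6 CPM in MPP4 and 4.71 and 5.72 CPM in CLP (-1.37), fell. Ikaros itself, Ikzf1, was at 232 and 234 CPM in MPP4 and 249 and 241 CPM in CLP and was not called (0.08 ± 0.106 SE, adjusted p = 0.588).

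Of 14 genes of V(D)J recombination 8 were called higher and 2 lower (median 0.38), with 1 lower without aged MPP4 replicate 1 or either aged CLP library. Rag1 and Rag2, neighbours on chromosome 2 (chr2:101638282-101649501 and chr2:101624718-101632529), encode the recombinase. Rag1 was at 0.742 and 0.795 CPM in aged MPP4 and 19.9 and 19.9 CPM in aged CLP (4.68 ± 0.459 SE, adjusted p = 4.18e-07). Rag2 was at 7.20 and 6.36 CPM in MPP4 and 59.1 and 72.002 CPM in CLP (3.27 ± 0.386 SE, adjusted p = 1e-06), without overlap between the groups. Dntt, the terminal transferase that adds bases at the joints and is also expressed before CLP, was at 1045 and 1089.5 CPM in MPP4 and 1880.5 and 2302 CPM in CLP (0.97), and the end-joining gene Lig4 at 1.48 and 1.66 CPM in MPP4 and 4.94 and 5.94 CPM in CLP (1.78). Xrcc5, which encodes Ku80, moved the other way, from 62.2 and 67.1 CPM to 22.2 and 25.8 CPM (-1.43), while its partner Xrcc6 rose (0.43). The ligation factors Xrcc4 (-0.16) and Nhej1 (0.04) were not called.

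The pre-B cell receptor list had 17 of 21 tested genes called higher and none lower with edgeR, and 13 higher with the DESeq2 test (median 7.05, or 5.91 with genes at 0 set to their bound). In young mice 19 were called higher and 1 lower. Vpreb1, the other surrogate light chain component beside Igll1 (chr16:16868403-16870843, minus strand), was at 0.445 and 0.723 CPM in aged MPP4 and 156 and 148 CPM in aged CLP (8.00 ± 0.27 SE, adjusted p = 7.53e-16). Vpreb3 was at 0.148 and 0 CPM in MPP4 and 100.3 and 85.4 CPM in CLP, with 2 counts in MPP4 and a log2 ratio of 10.31 with a 95% counting interval of 8.45 to 13.35. The adaptor Blnk, which links the receptor to its kinases, was at 6.82 and 7.59 CPM in MPP4 and 465 and 405 CPM in CLP (5.91 ± 0.243) and the kinase Blk at 0.371 and 0.145 CPM in MPP4 and 52.4 and 63.98 CPM in CLP (7.78 ± 0.431). The groups were far apart in each case. Genes for signalling proteins shared with myeloid cells rose less: Syk was at 164 and 166 CPM in MPP4 and 459 and 347 CPM in CLP (1.29). Lyn was at 94.1 and 102 CPM in MPP4 and 359.6 and 274 CPM in CLP (1.69). Cd72 was at 58.5 and 57.6 CPM in MPP4 and 132 and 120.1 CPM in CLP (1.12). All 3 were already present in MPP4. Cd79b, the partner of Cd79a, was present in MPP4 and was at 43.02 and 40.6 CPM in MPP4 and 183 and 175 CPM in CLP (2.098). Plcg2, at 552 and 541 CPM in MPP4 and 568 and 515 CPM in CLP, Cd24a, at 303 and 302 CPM in MPP4 and 268 and 314 CPM in CLP, and Lax1, at 43.9 and 41.1 CPM in MPP4 and 39.1 and 42.2 CPM in CLP, were not called. Ms4a1, encoding CD20 of later B cells, stayed low at 6.80 and 10.8 CPM in aged CLP, compared with 104 and 101 CPM in young CLP.

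Promoter sequences were examined because these genes moved together. Promoters of 250 bases before to 50 after the start were taken from RefSeq (GRCm38.p6), and 6 motifs were searched on both strands: CAGGTG, an E-box bound by E2A, CCCNNGGG, the core of the EBF site, AGGAAGT for PU.1, GAANNGAAA for IRF factors, TGACGTCA, the cyclic AMP response element, and CCATATTAG, a serum response element core. Windows may hold several motifs, and overlaps between motifs were not removed. The E-box was found in 11 of the 16 promoters (68.8%) of 14 list genes matched in the table, compared with 20.2% of all 32851 promoters and 18.3% of the 13537 promoters of tested genes. Genes at least 2-fold higher held it in 21.8% and genes at least 2-fold lower in 20.4%. The EBF core was found in 18.8% of the promoters of the list, near the 17.9% of promoters of tested genes and below the 21.8% and 20.2% of genes at least 2-fold higher and lower (13.7% of all). The PU.1 motif was found in 4 of the 16 promoters (25%, against 9.29% of promoters of tested genes). The IRF motif was found in 3 (18.8%, against 6.17%), and the other 2 motifs in 0. The E-box was thus not alone in exceeding its share over tested genes, and these shares were not tested. The promoters of Cd79a (chr7:24897247-24897546, plus strand), Igll1 (chr16:16863936-16864235, minus strand), Vpreb1 (chr16:16869206-16869505, minus strand) and Rag1 (chr2:101649483-101649782, minus strand) are shown because their genes are described above and each holds an E-box. Its first base lies at -154, -8, -88 and -135 bases from the start. They are written from 5′ to 3′ along the gene, with the E-box or its reverse complement in capitals.
Cd79a: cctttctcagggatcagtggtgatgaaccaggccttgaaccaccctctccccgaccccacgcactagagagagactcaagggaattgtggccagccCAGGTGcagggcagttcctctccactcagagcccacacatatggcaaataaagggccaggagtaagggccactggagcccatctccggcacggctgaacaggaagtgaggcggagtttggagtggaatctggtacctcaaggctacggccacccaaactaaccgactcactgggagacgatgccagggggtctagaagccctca
Igll1: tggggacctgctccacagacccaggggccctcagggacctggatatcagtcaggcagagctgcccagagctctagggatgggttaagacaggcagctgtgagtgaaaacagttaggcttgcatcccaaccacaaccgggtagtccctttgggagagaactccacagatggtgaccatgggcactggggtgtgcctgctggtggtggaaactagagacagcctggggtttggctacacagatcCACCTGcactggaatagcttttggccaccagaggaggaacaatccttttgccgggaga
Vpreb1: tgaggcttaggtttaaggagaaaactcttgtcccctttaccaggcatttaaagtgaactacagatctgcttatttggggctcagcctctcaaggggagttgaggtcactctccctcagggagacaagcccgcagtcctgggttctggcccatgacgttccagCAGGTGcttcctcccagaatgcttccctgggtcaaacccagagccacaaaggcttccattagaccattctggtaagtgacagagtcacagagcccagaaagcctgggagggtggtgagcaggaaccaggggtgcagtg
Rag1: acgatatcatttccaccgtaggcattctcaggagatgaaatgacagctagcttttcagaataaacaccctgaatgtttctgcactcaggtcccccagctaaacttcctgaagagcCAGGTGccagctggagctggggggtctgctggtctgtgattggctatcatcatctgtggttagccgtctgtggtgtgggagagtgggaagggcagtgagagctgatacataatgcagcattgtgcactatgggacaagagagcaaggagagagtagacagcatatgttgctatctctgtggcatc
A match describes the letters of the window only, and binding was not measured here.

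**Figure D3:**
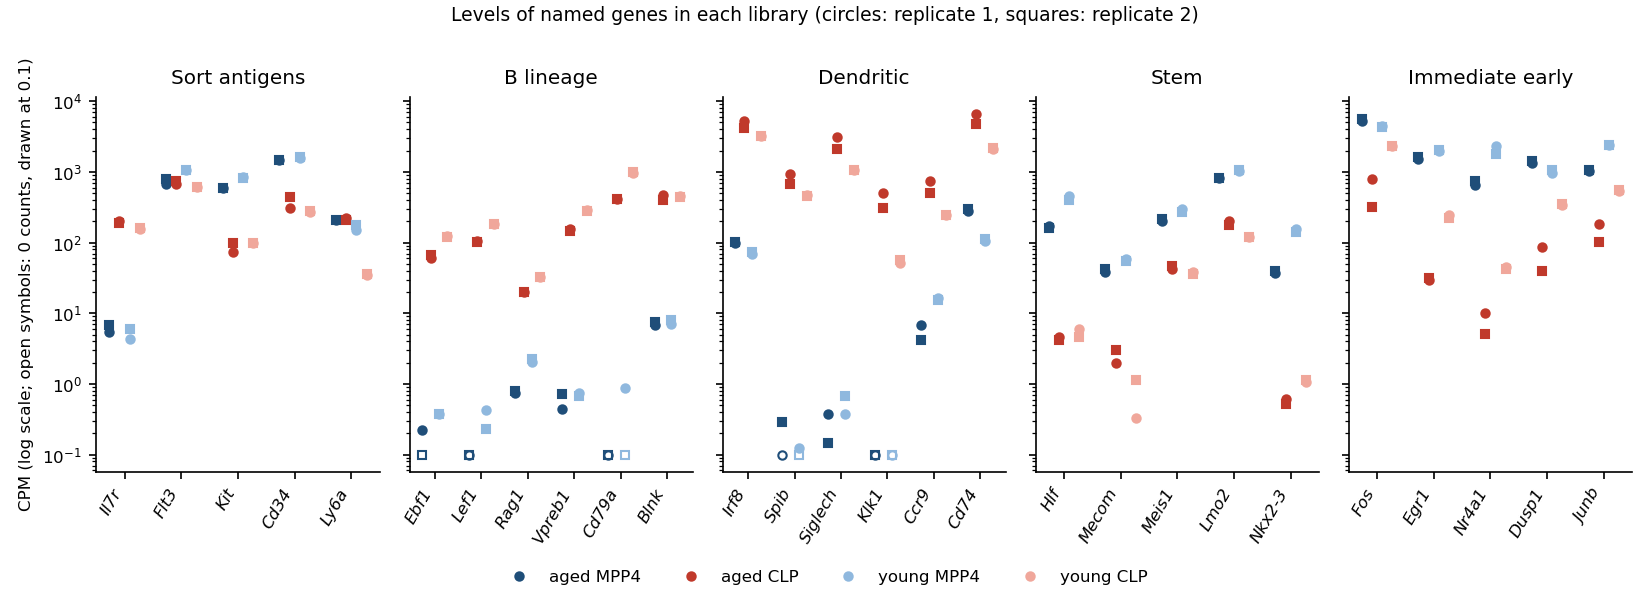
CPM on a log axis, with libraries at 0 counts as open symbols at 0.1, of selected sort antigen, B-lineage, dendritic, stem cell and immediate early genes in each of the 2 libraries of aged MPP4, aged CLP, young MPP4 and young CLP. The B-lineage gene Cd79a is at 0 in aged MPP4 and at 413 and 415 CPM in aged CLP, and Ly6a is at 221 and 207 CPM in aged CLP but at 34.4 and 35.9 CPM in young CLP.

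Genes of T, NK and innate lymphoid cells gave fewer calls, 12 of 30 higher and 1 lower. Cd7, a surface protein of early T and NK progenitors also found on plasmacytoid dendritic cells, was at 2.08 and 1.88 CPM in aged MPP4 and 546 and 353 CPM in aged CLP (7.82 ± 0.325 SE, adjusted p = 5.62e-14). The NK receptor Klrd1 was at 0.668 and 0.289 CPM in MPP4 and 89.03 and 69.4 CPM in CLP (7.35). The IL-2 receptor β chain Il2rb was at 0.89 and 0 CPM in MPP4 and 12.97 and 14.6 CPM in CLP (4.94). The CLP libraries exceeded the MPP4 libraries in each. Cd4 was at 2.37 and 3.76 CPM in MPP4 and 97.9 and 59.4 CPM in CLP (4.67). By contrast the T cell receptor components Cd3d, Cd3e and Cd3g stayed under 1 CPM in all 4 aged libraries and were not called. Nkg7, a granule protein of NK and myeloid cells, fell from 157 and 160.1 CPM to 48.96 and 54.5 CPM (-1.62). The number called higher was 7 without either aged MPP4 library, 10 without aged CLP replicate 1 and 8 without replicate 2.

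Dendritic cell markers had 8 of 10 called higher and none lower (median 6.65). Their summed level was 21.5 and 19.7 CPM in aged MPP4 and 4711 and 3149 CPM in aged CLP, and it was 20.4 and 19.03 CPM in young MPP4 and 1631 and 1635 CPM in young CLP. Most of the sum came from Siglech, the sialic acid lectin that defines plasmacytoid dendritic cells (chr7:55768178-55778925, minus strand), at 0.371 and 0.145 CPM in aged MPP4 and 3155 and 2089 CPM in aged CLP (13.27 ± 0.498 SE, adjusted p = 1.23e-12). Both aged CLP libraries were above both young CLP libraries, which held 1071 and 1056 CPM, but the difference between the steps, 2.28 ± 1.22, was not called (adjusted p = 0.192). With aged MPP4 near the floor that difference was poorly determined, and aged and young CLP were not compared directly. Pacsin1, a membrane remodelling protein of plasmacytoid dendritic cells, was at 0.297 and 0.795 CPM in MPP4 and 265 and 170.5 CPM in CLP (8.61). The lectin Clec10a was at 8.60 and 7.52 CPM in MPP4 and 163 and 118 CPM in CLP (4.12). Clec9a was at 0.371 and 0 CPM in MPP4 and 48.9 and 32.5 CPM in CLP, with 5 counts in MPP4. In all 3 aged CLP replicate 1 exceeded replicate 2. Of the defining genes of conventional dendritic cells, Zbtb46 was at 0.816 and 0.361 CPM in MPP4 and 0.463 and 0.446 CPM in CLP and Xcr1 at 2.08 and 2.31 CPM in MPP4 and 3.40 and 3.20 CPM in CLP, and neither was called. Ly6c2 and Bst2, both expressed by plasmacytoid dendritic cells, rose as well. Ly6c2 was at 2.08 and 2.46 CPM in MPP4 and 520.1 and 382 CPM in CLP (7.63). Bst2 was at 87.6 and 88.5 CPM in MPP4 and 945 and 626 CPM in CLP (3.16). With the test of DESeq2 5 dendritic markers were called in place of 8.

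Of 15 genes of MHC class II presentation 12 were called higher and none lower (median 2.35). The invariant chain Cd74 was at 276 and 296 CPM in aged MPP4 and 6689 and 4725 CPM in aged CLP (4.32 ± 0.29 SE, adjusted p = 5.91e-11). The class II transactivator Ciita was at 6.01 and 7.45 CPM in MPP4 and 79.9 and 62.3 CPM in CLP (3.40), and the class II chains H2-Aa, H2-Ab1 and H2-Eb1 rose by 3.54, 3.15 and 3.21. The peptide exchange genes rose less, H2-DMa by 0.95 and H2-DMb1 by 1.82, and Ctss, the protease that degrades the invariant chain, was at 43.4 and 44.9 CPM in MPP4 and 685 and 469 CPM in CLP (3.71). The promoter factors Rfx5 (-0.30) and Rfxap (-0.14) were not called. The level of 13 of the 15 genes was higher in CLP replicate 1, in which the dendritic markers were also higher, and the part of dendritic cell markers in the class II levels was not tested. The aged step minus the young step is called the difference here, greater where the log2 fold change was more positive in aged mice and smaller where it was more negative. It was greater for 5 genes, among them H2-Oa (1.38), H2-DMb1 (1.15) and Ctss (1.27), where over all genes 7.48% were called greater and 10.2% smaller (17.7% in either direction).

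Chemokine receptors and homing genes were called higher in 20 of 30 and lower in 7 (median 1.43). Ccr9, a receptor for the thymic and gut chemokine CCL25, was at 6.82 and 4.19 CPM in aged MPP4 and 755 and 505 CPM in aged CLP (6.84 ± 0.288 SE, adjusted p = 1.97e-13). Cxcr3 was at 0.593 and 0.506 CPM in MPP4 and 164 and 95.7 CPM in CLP (7.86). Both were higher in CLP replicate 1 than in replicate 2, and both replicates were above MPP4. Ly6d, which marks B-lineage biased CLP, was at 3.56 and 2.67 CPM in MPP4 and 936 and 971 CPM in CLP (8.25 ± 0.185 SE, adjusted p = 7.43e-15) with both duplicates alike. Ccr7 was at 10.1 and 9.76 CPM in MPP4 and 39.4 and 51.1 CPM in CLP (2.19). Selplg, the P-selectin ligand, was at 351 and 361 CPM in MPP4 and 1752 and 1562 CPM in CLP (2.22). Itgb7, the integrin β7 chain, was at 93.4 and 101 CPM in MPP4 and 582 and 449 CPM in CLP (2.41). These lay apart between the groups. Genes known from earlier progenitors were among the falls. P-selectin, Selp, was at 75.5 and 79.4 CPM in MPP4 and 4.32 and 5.28 CPM in CLP (-4.01). Esam was at 14.2 and 11.6 CPM in MPP4 and 1.004 and 2.53 CPM in CLP (-2.86). Itga6 was at 116 and 114 CPM in MPP4 and 24.9 and 30.1 CPM in CLP (-2.07). In each, both CLP libraries were the lower ones. The chemokine gene Ccl3 was at 71.5 and 73.95 CPM in MPP4 and 11.3 and 8.84 CPM in CLP and fell too (-2.85).

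Among 20 genes of IL-7 receptor signalling 8 were called higher and 4 lower (median 0.08), close to the shares over all genes for the falls. Il7r itself rose, as given above, but CLP were gated for the receptor and MPP4 against it, so the gate favoured this direction. The rise of Il7r was not shared by its partners. The common γ chain Il2rg was at 267 and 292 CPM in aged MPP4 and 188 and 168 CPM in aged CLP (-0.65) and its kinase Jak3 at 492 and 512 CPM in MPP4 and 168 and 181 CPM in CLP (-1.52), both lower in aged CLP. Jak1, at 371 and 399.6 CPM in MPP4 and 351 and 327 CPM in CLP, Stat5a, at 157 and 169.96 CPM in MPP4 and 130.3 and 147 CPM in CLP, and Stat5b, at 261 and 256 CPM in MPP4 and 246 and 232 CPM in CLP, were not called. Socs2, a feedback inhibitor induced by STAT5, was at 1.93 and 1.88 CPM in MPP4 and 27.1 and 34.1 CPM in CLP and rose (4.00 ± 0.216 SE, adjusted p = 3.81e-12), while Socs3 was at 134 and 131 CPM in MPP4 and 28.4 and 14.9 CPM in CLP and fell (-2.62). Pik3cd (1.02) and the phosphatase Ptpn6 (1.53) rose.

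Of 34 growth factor and cytokine receptors 16 were called higher and 9 lower (median 0.40). The myeloid and stem cell receptors Csf3r, at 256 and 262 CPM in aged MPP4 and 22.1 and 19.5 CPM in aged CLP (-3.64), and Il1r1, at 184 and 191 CPM in aged MPP4 and 27.4 and 30.3 CPM in aged CLP (-2.70), fell. Csf2rb, the β chain shared by the IL-3, IL-5 and GM-CSF receptors, was at 61.4 and 66.2 CPM in aged MPP4 and 340.4 and 246 CPM in aged CLP and rose (2.20). Csf2rb2, the β chain specific to the mouse IL-3 receptor, was at 13.4 and 15.98 CPM in aged MPP4 and 339 and 216 CPM in aged CLP and rose too (4.24). In 10 receptors the step was greater in aged mice and in none smaller. Il21r was at 41.8 and 45.5 CPM in aged MPP4 and 143 and 94.8 CPM in aged CLP, a rise of 1.44, and at 73.2 and 77.2 CPM in young MPP4 and 68.7 and 60.04 CPM in young CLP, where it was not called (-0.22), so that the steps differed by 1.67 ± 0.187 SE, adjusted p = 1.41e-06. Il10rb, a chain of the IL-10 receptor, differed in the same direction (0.83). The 10 became 6 without aged MPP4 replicate 1 and 4 without aged CLP replicate 1.

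Of 28 genes of the Notch pathway 7 were called higher and 3 lower (median 0.14), with 4 higher without aged MPP4 replicate 2 and with 5 higher and 1 lower without aged CLP replicate 2. Notch3 was at 0.445 and 0.217 CPM in aged MPP4 and 25.6 and 13.1 CPM in aged CLP (5.84). The glycosyltransferase Mfng, which modifies Notch receptors, was at 174 and 183 CPM in MPP4 and 105 and 98.5 CPM in CLP and fell (-0.81), and the regulator Dtx4 was at 41.5 and 37.5 CPM in MPP4 and 74.9 and 88.8 CPM in CLP and rose (1.05). The target gene Hes1, at 8.98 and 11.8 CPM in MPP4 and 12.4 and 10.6 CPM in CLP, and the DNA-binding factor Rbpj, at 102 and 98.97 CPM in MPP4 and 87.5 and 86.8 CPM in CLP, were not called.

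Transcription factors of stem and multipotent cells fell in 20 of 30 and rose in 2 (median -1.29; 1 rose without aged MPP4 replicate 1 or aged CLP replicate 1). Hlf, a bZIP factor of stem and multipotent cells (chr11:90336536-90390895, minus strand), was at 172 and 162 CPM in aged MPP4 and 4.63 and 4.24 CPM in aged CLP (-5.23 ± 0.216 SE, adjusted p = 2.18e-14). Mecom, encoding EVI1, was at 37.8 and 42.5 CPM in MPP4 and 2.01 and 2.97 CPM in CLP (-4.00 ± 0.22 SE, adjusted p = 2.36e-12). For both, every aged CLP library was at least 10-fold below every aged MPP4 library. Prdm16 was at 19.6 and 23.3 CPM in MPP4 and 1.39 and 2.82 CPM in CLP (-3.33). Hoxa10 was at 32.9 and 29.5 CPM in MPP4 and 2.78 and 4.76 CPM in CLP (-3.04). Both were low in aged CLP. Meis1 was at 204 and 214 CPM in MPP4 and 42.8 and 46.9 CPM in CLP (-2.22). Lmo2 was at 825 and 819 CPM in MPP4 and 200.3 and 179.7 CPM in CLP (-2.11). Both groups expressed these 2 genes. Nfe2 was at 219 and 225 CPM in MPP4 and 43.1 and 53.4 CPM in CLP (-2.20). Etv6 was at 555 and 539 CPM in MPP4 and 219.8 and 215 CPM in CLP (-1.33). In all 4 the aged CLP libraries were the lower ones. Gata2 was at 64.98 and 70.7 CPM in MPP4 and 0.695 and 4.31 CPM in CLP (-4.74 ± 0.297 SE, adjusted p = 1.91e-11). Fli1, at 148 and 163 CPM in MPP4 and 139.8 and 144 CPM in CLP, and Hhex, at 226 and 227 CPM in MPP4 and 277 and 247 CPM in CLP, were not called. Gfi1b, a repressor of megakaryocyte and erythroid progenitors, was 1 of the 2 that rose, with 11.5 and 12.6 CPM in MPP4 and 29.3 and 42.2 CPM in CLP (1.57), in a direction shared with the platelet markers given below, and the part of those markers was not tested. The other was the homeobox gene Hoxa7, at 19.9 and 24.5 CPM in MPP4 and 38.2 and 34.6 CPM in CLP (0.71). In 7 of the 30 genes the step differed in the positive direction between ages and in 2 in the negative. Lmo2 fell less in aged mice (1.01), and Egr1 (-2.60) and Gata2 (-3.81) fell more. Gata2 is also in the list of basophil and mast cell markers, which summed to 1834 and 1896 CPM in young CLP and 12.1 and 17.4 CPM in aged CLP. The part of such cells in its difference was not tested. The 7 became 4 without aged MPP4 replicate 1 and 3 without aged CLP replicate 2, and 11 with the DESeq2 test.

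Of 29 myeloid progenitor genes 13 were called lower and 6 higher (median -0.37). The granule protease Prtn3 was at 222 and 222 CPM in aged MPP4 and 12.6 and 21.5 CPM in aged CLP (-3.70 ± 0.184 SE, adjusted p = 4.39e-13) and the hexokinase Hk3 at 113 and 109.7 CPM in aged MPP4 and 9.65 and 12.1 CPM in aged CLP (-3.35). Cebpa, the factor that directs granulocyte differentiation, was at 39.02 and 41.6 CPM in aged MPP4 and 12.97 and 10.6 CPM in aged CLP (-1.77). Gfi1 was at 44.5 and 48.8 CPM in aged MPP4 and 20.1 and 16.9 CPM in aged CLP (-1.33). Each was lower in both aged CLP libraries. Spi1, encoding PU.1, fell less (-0.53). Clec12a, at 35.8 and 30.3 CPM in aged MPP4 and 349 and 290.01 CPM in aged CLP (3.27), and Plac8, at 522 and 464 CPM in aged MPP4 and 932 and 963 CPM in aged CLP (0.94), rose, and both are also expressed by plasmacytoid dendritic cells. In young mice the list was split differently, with 14 higher and 10 lower. Ctsg, the protease cathepsin G, was at 61.9 and 65.6 CPM in aged MPP4 and 8.42 and 21.3 CPM in aged CLP (-2.095) but at 10.95 and 11.03 CPM in young MPP4 and 70.01 and 75.7 CPM in young CLP (2.73), a difference of -4.82 ± 0.39 SE, adjusted p = 3.82e-08. Elane, neutrophil elastase, was at 2.89 and 2.96 CPM in aged MPP4 and 1.47 and 4.61 CPM in aged CLP and at 6.68 and 7.53 CPM in young MPP4 and 153 and 166 CPM in young CLP, a difference of -4.42 ± 0.822 SE, adjusted p = 0.00036. The step was smaller in aged mice for 11 genes of the list and greater for 1, which was not called without aged MPP4 replicate 1 or aged CLP replicate 1. Young CLP held summed neutrophil markers of 665 and 678 CPM and summed basophil and mast cell markers of 1834 and 1896 CPM, compared with 192 and 103 CPM and 12.1 and 17.4 CPM in aged CLP, and their part in these differences was not tested.

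S phase genes moved in opposite directions at the 2 ages. Of 43 S phase genes 27 were called lower and 1 higher in aged CLP than in aged MPP4 (median -0.34). In young mice 26 were called higher and 1 lower (median 0.41), against 21.3% higher and 20.5% lower over all genes. The difference between the steps was negative and called for 37 of 43 and positive for none (median -0.82). Mcm5, a subunit of the replicative helicase, was at 757 and 744 CPM in aged MPP4 and 491 and 580.2 CPM in aged CLP (-0.49) and at 525 and 518 CPM in young MPP4 and 684 and 702 CPM in young CLP (0.41), a difference of -0.90 ± 0.0923 SE, adjusted p = 4.98e-07. Pola1, of the polymerase α complex, was at 168 and 177 CPM in aged MPP4 and 71.7 and 72.8 CPM in aged CLP (-1.26) and at 110.03 and 104 CPM in young MPP4 and 120.3 and 95.3 CPM in young CLP (0.01), a difference of -1.27 ± 0.235 SE, adjusted p = 0.000358. In both genes the aged MPP4 libraries were the highest of the 8. Rrm2, a subunit of ribonucleotide reductase, was the 1 gene that rose in aged CLP, at 267 and 278 CPM in aged MPP4 and 399 and 457 CPM in aged CLP (0.65), and it rose more in young mice, at 128 and 133 CPM in young MPP4 and 636 and 619 CPM in young CLP (2.26, difference -1.61 ± 0.107). Without aged CLP replicate 1 the number called lower was 17, and without replicate 2 it was 32.

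Of 54 G2/M genes 11 were called higher and 5 lower (median 0.06). In young mice 48 were called higher and none lower (median 0.88), and the difference was called negative for 38 and positive for none (median -0.84). Cdk1, the mitotic kinase, was at 184 and 187 CPM in aged MPP4 and 137 and 174 CPM in aged CLP (-0.26, not called) and at 102 and 115 CPM in young MPP4 and 222 and 211 CPM in young CLP (1.00), a difference of -1.25 ± 0.117 SE, adjusted p = 1.72e-07. Top2a was at 581 and 646 CPM in aged MPP4 and 496 and 610.05 CPM in aged CLP and at 451 and 446 CPM in young MPP4 and 763 and 761 CPM in young CLP (difference -0.91), and Aurkb differed by -1.20. The 11 calls in aged mice were 3 without aged MPP4 replicate 1, 4 without aged MPP4 replicate 2 and 3 without aged CLP replicate 2, and the 5 falls were 1 without aged CLP replicate 1 and 10 without replicate 2, so that no direction is given for this list in aged mice. The median was 0.15 and -0.14 without aged CLP replicate 1 and 2. Among 23 cyclins, kinases and inhibitors, Ccnd3, a D-type cyclin of lymphoid progenitors, was at 234 and 254 CPM in aged MPP4 and 1218 and 1299 CPM in aged CLP (2.37 ± 0.0815 SE, adjusted p = 1.14e-15). Ccnd1 was at 30.4 and 22.5 CPM in aged MPP4 and 274 and 262 CPM in aged CLP (3.34). The inhibitor Cdkn2c was at 58.5 and 52.9 CPM in aged MPP4 and 125 and 132 CPM in aged CLP (1.21). All 3 rose. Cdkn2d was at 43.9 and 42.1 CPM in aged MPP4 and 137 and 121 CPM in aged CLP (1.58) and rose too, whereas the kinase Cdk4 was at 866 and 843 CPM in aged MPP4 and 539 and 646 CPM in aged CLP and fell (-0.53). The difference between ages was negative and called for 11 genes of this list and positive for 2, Ccnd1 and Mycl. The rise of Ccnd3 was smaller than in young mice (-0.89), and that of Ccnd1 was greater (difference 1.19 ± 0.282 SE, adjusted p = 0.00298). The difference of Ccnd1 was not called without aged MPP4 replicate 2, aged CLP replicate 1, young MPP4 replicate 1 or either young CLP library (adjusted p = 0.0118 to 0.0274). Cdkn2a had no read in any of the 8 libraries.

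**Figure D4:**
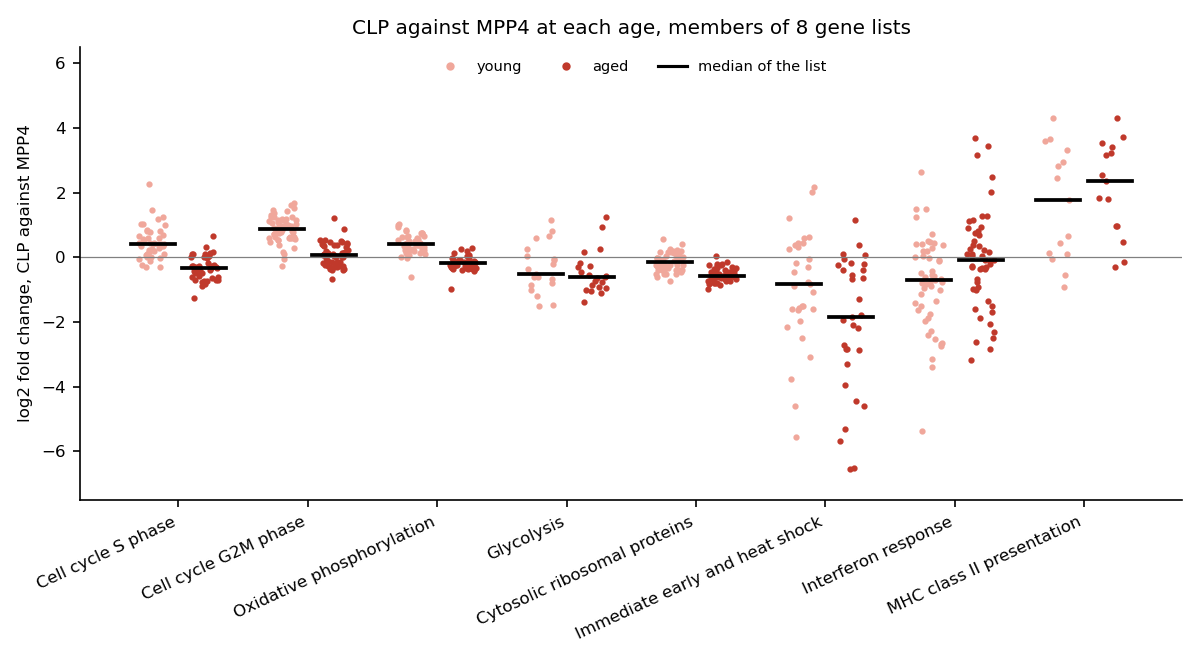
Log2 fold change of CLP over MPP4 (y axis) for every tested member of 8 gene lists (x axis), in young mice (pale) and in aged mice (red), with the median of each list as a black bar. The S phase, oxidative phosphorylation and G2/M lists have medians of 0.41, 0.41 and 0.88 in young mice and -0.34, -0.20 and 0.06 in aged mice, and the interferon list of -0.69 and -0.09.

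Ribosomal protein and glycolysis genes were mostly lower in aged CLP. Of 54 cytosolic ribosomal protein genes 46 were called lower and none higher (median -0.58). Rpl3 was at 1519.5 and 1484 CPM in aged MPP4 and 958 and 1063 CPM in aged CLP (-0.57). Rps19 was at 745 and 686 CPM in aged MPP4 and 452 and 477 CPM in aged CLP (-0.62). In young mice 13 were called lower and 1 higher. Of 44 oxidative phosphorylation genes 13 were called lower and none higher (median -0.20), 7 without aged CLP replicate 1. In young mice 27 were called higher and 1 lower, and the difference was negative and called for 27 and positive for none (median -0.59). Cox5a was at 239.9 and 217 CPM in aged MPP4 and 200.4 and 209 CPM in aged CLP and at 117 and 145 CPM in young MPP4 and 253 and 265 CPM in young CLP, a difference of -1.14 ± 0.142 SE, adjusted p = 4.3e-06. Cycs, cytochrome c, differed by -1.05. For both genes the young MPP4 libraries were the lowest of the 8. Of 21 glycolysis genes 15 were called lower and 2 higher (median -0.61). Ldha, lactate dehydrogenase A, was at 1628 and 1551 CPM in aged MPP4 and 1047 and 1081 CPM in aged CLP (-0.58) and at 779 and 827 CPM in young MPP4 and 1269.8 and 1267 CPM in young CLP (0.66), a difference of -1.24 ± 0.0879 SE, adjusted p = 6.7e-09, while Ldhb was at 60.5 and 60.3 CPM in aged MPP4 and 134 and 95.8 CPM in aged CLP (0.93) and at 125 and 140.5 CPM in young MPP4 and 59.6 and 56.1 CPM in young CLP (-1.20), a difference of 2.13 ± 0.184 SE, adjusted p = 7.36e-08. The A and B genes of the enzyme thus moved in opposite directions at each age. Hk1 (-1.01), Pfkl (-0.93) and Tpi1 (-1.05) were also lower.

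Of 31 immediate early and heat shock genes 22 were called lower and 1 higher in aged CLP (median -1.85, -2.34 without aged CLP replicate 1 and -1.51 without replicate 2). Fos was at 5207 and 5523 CPM in aged MPP4 and 783 and 315 CPM in aged CLP (-3.29 ± 0.246 SE, adjusted p = 5.87e-10). Dusp1, a phosphatase acting on MAP kinases, was at 1329 and 1415 CPM in aged MPP4 and 86.2 and 39.2 CPM in aged CLP (-4.45 ± 0.269 SE, adjusted p = 1.03e-11). Zfp36, which destabilises mRNAs, was at 3037 and 3249 CPM in aged MPP4 and 624 and 250.1 CPM in aged CLP (-2.85). In these genes aged CLP replicate 2 was lower than replicate 1, and both were below MPP4. Fos was at 2344 and 2342 CPM in young CLP, so that it fell less in young mice (difference -2.38 ± 0.323), and the same held for Dusp1 (difference -2.89 ± 0.337) and Egr1. Klf2, a factor of lymphocyte quiescence, was at 618 and 643 CPM in aged MPP4 and 245 and 105 CPM in aged CLP (-1.85) and at 264 and 273 CPM in young MPP4 and 617 and 639 CPM in young CLP (1.23), a difference of -3.07 ± 0.318 SE, adjusted p = 5.34e-07. Over the 31 genes the difference was negative and called for 15 and positive for 3, Ier5 (1.32), Btg2 (1.19) and Dnajb1 (0.39). The heat shock genes Hspa1a (-0.25) and Hspa8 (-0.17) were not called. These genes are known to respond to tissue dissociation and sorting. The part of handling in these values was not tested.

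The interferon response list was divided in aged mice, with 17 of 50 called higher and 16 lower (median -0.09). In young mice 9 were higher and 30 lower (median -0.69), and the difference was positive and called for 17 and negative for none (median 0.61). Transcription factors of the pathway were among those that rose. Irf7 was at 67.4 and 67.95 CPM in aged MPP4 and 339.8 and 213 CPM in aged CLP (2.03) and at 93.7 and 95.3 CPM in young MPP4 and 87.6 and 88.4 CPM in young CLP (-0.10), a difference of 2.13 ± 0.222 SE, adjusted p = 5.81e-07. Irf1 was at 139.5 and 148 CPM in aged MPP4 and 319.7 and 305 CPM in aged CLP (1.12) and at 260.2 and 225 CPM in young MPP4 and 162 and 159 CPM in young CLP (-0.60), a difference of 1.72 ± 0.144 SE, adjusted p = 4.83e-08. Aged CLP was the highest of the 4 groups in both genes. Antiviral effectors went both ways. The largest log2 fold change of the list was the rise of Mx1 (3.68), and Bst2, given above, rose too. Those that fell included Oas3 (-2.62) and Ddx58, encoding the sensor RIG-I (-2.31). Ifitm3 was at 323 and 356 CPM in aged MPP4 and 47.3 and 48.1 CPM in aged CLP and fell as well (-2.83). The class I gene H2-K1 was at 2163 and 2192 CPM in aged MPP4 and 2863 and 2747 CPM in aged CLP (0.37) and at 1965 and 2179.6 CPM in young MPP4 and 1514 and 1543 CPM in young CLP (-0.44), a difference of 0.80. Of 8 Gimap GTPase genes, which act in lymphocyte survival, 4 were called higher and none lower, with Gimap6 at 108 and 110.2 CPM in aged MPP4 and 153 and 181 CPM in aged CLP (0.61). Of 17 Bcl2 family genes 5 were called higher (3 without either aged MPP4 library and 2 without aged CLP replicate 2) and 1, Mcl1, lower (-0.73), with Bcl2l1 at 29.2 and 32.02 CPM in aged MPP4 and 54.9 and 57.5 CPM in aged CLP (0.88).

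Markers of other cell types the gates could hold were examined as summed CPM. Mature neutrophil markers, with 8 of 10 called higher (4 without aged CLP replicate 1), summed to 42.95 and 46.3 CPM in aged MPP4 and 192 and 103 CPM in aged CLP. Megakaryocyte and platelet markers, with 6 of 9 higher and 2 lower, summed to 139 and 137 CPM and 166 and 271 CPM. In both cases the aged CLP libraries stood apart from each other, in opposite orders. Basophil and mast cell markers, with 1 of 10 higher and 2 lower (1 lower without aged MPP4 replicate 1 or aged CLP replicate 1), summed to 71.7 and 77.6 CPM and 12.1 and 17.4 CPM, with Prss34, Il4, Il6 and Cd200r3 at 0 in all 4 aged libraries. Macrophage markers, with none of 10 higher and 5 lower (2 when aged CLP replicate 2 was left out and 3 without any other of the 4 libraries), summed to 15.1 and 14.3 CPM and 6.95 and 5.50 CPM, with Fcna and Cd5l at 0 in both aged CLP libraries. Mature B and plasma cell markers, with 7 of 10 higher and none lower, summed to 275 and 268 CPM and 1130.0 and 1029 CPM, mostly from Xbp1 and Cd37, while Cr2 was at 0.849 and 2.60 CPM in aged CLP. Erythroid markers, with 4 of 11 higher (2 without either aged MPP4 library or aged CLP replicate 2) and 1 lower, summed to 598.5 and 637.5 CPM and 575.8 and 185 CPM. The aged CLP libraries differed mainly in Hba-a2, at 440.3 and 1.04 CPM. The sums were dominated by Car2 (490.03 and 532 CPM in aged MPP4 and 77.6 and 95.3 CPM in aged CLP), which multipotent progenitors also express, and by the near-identical globin copies Hba-a1 and Hba-a2, whose reads the counting may divide unevenly.

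The step from MPP4 to CLP was compared between ages with an interaction term. Of the 5728 genes called in aged mice, 1589 were higher and 1772 lower in CLP at both ages, which is 58.7% of the aged and 56.8% of the young calls. The difference itself was called for 2499 genes, 1059 greater and 1440 smaller in aged mice, and 66 genes rose in aged but fell in young mice and 236 the reverse. A negative difference is a smaller rise or a larger fall in aged mice. Mcpt8, a basophil protease, was at 4.15 and 3.18 CPM in aged MPP4 and 0.772 and 2.30 CPM in aged CLP and at 4.15 and 3.88 CPM in young MPP4 and 279 and 292 CPM in young CLP, a difference of -7.38 ± 0.427 SE, adjusted p = 3.01e-09. Emilin2 was at 36.5 and 36.6 CPM in aged MPP4 and 3.09 and 3.27 CPM in aged CLP and at 7.24 and 6.77 CPM in young MPP4 and 35.3 and 39.6 CPM in young CLP, a difference of -5.93 ± 0.195 SE, adjusted p = 1.2e-14. Mcpt8 was high in young CLP alone, whereas Emilin2 was at similar levels in young CLP and aged MPP4. Young CLP was also far above aged CLP for Ms4a3 (27.9 and 24.1 CPM in young CLP, 0.927 and 0 CPM in aged CLP), for the complement gene C1qc (25.8 and 28.9 and 0.695 and 0 CPM) and for the lectin Fcna (22.7 and 24.8 CPM, with no read in aged CLP). Cpm, a carboxypeptidase, was at 0.519 and 0.217 CPM in aged MPP4 and 1.70 and 3.12 CPM in aged CLP and at 0.186 and 0.152 CPM in young MPP4 and 24.9 and 23.7 CPM in young CLP. The differences of Ms4a3 and Cpm were no longer called without aged MPP4 replicate 1 (adjusted p = 0.0111 and 0.0809), nor was that of Cpm without young MPP4 replicate 1 (0.0116).

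A positive difference is a larger rise or a smaller fall in aged mice. Pf4, platelet factor 4, was at 0.668 and 1.08 CPM in aged MPP4 and 36.4 and 77.2 CPM in aged CLP and at 1.92 and 2.13 CPM in young MPP4 and 2.79 and 4.21 CPM in young CLP, a difference of 5.21 ± 0.706 SE, adjusted p = 1.21e-05. Vwf, von Willebrand factor, was at 0.742 and 1.16 CPM in aged MPP4 and 15.3 and 29.6 CPM in aged CLP and at 1.55 and 1.29 CPM in young MPP4 and 0.247 and 0 CPM in young CLP. For Pf4 and Vwf aged CLP replicate 2 was higher than replicate 1, as for the platelet markers as a list, and young CLP was near the floor for Vwf. Ppbp was at 0.148 and 0 CPM in aged MPP4 and 31.1 and 15.1 CPM in aged CLP, Tie1 at 35.2 and 30.6 CPM in aged MPP4 and 0.772 and 2.15 CPM in aged CLP and Procr, the protein C receptor, at 16.7 and 17.7 CPM in aged MPP4 and 0.309 and 0.966 CPM in aged CLP. For Procr young CLP was at 0.164 and 0 CPM, and its difference was not called without aged CLP replicate 2 (adjusted p = 0.0877) or young CLP replicate 2 (0.0251). Plxdc2 was at 1.19 and 0.94 CPM in aged MPP4 and 31.3 and 19.2 CPM in aged CLP and at 13.5 and 10.4 CPM in young MPP4 and 17.7 and 18.6 CPM in young CLP (difference 3.96 ± 0.438), and Pacsin1, of the dendritic markers, differed by 3.91 ± 0.699. Ccr9 rose at both ages and more in aged mice (2.90 ± 0.355). Where a group was at or near 0 (Fcna, Vwf, Tie1, Ppbp) the fitted size depends on the prior count and is no bound. Summed platelet markers were 306 and 321 CPM in young MPP4 and 69.2 and 61.99 CPM in young CLP, and basophil markers 122 and 127 CPM and 1834 and 1896 CPM. Macrophage markers, which include C1qc and Fcna, summed to 75.0 and 87.1 CPM in young MPP4 and 220.4 and 244 CPM in young CLP, and their difference between ages was negative and called for 7 of 10. The part of such cells in the differences was not tested. The numbers of greater differences were 670 without aged MPP4 replicate 1, 638 without aged CLP replicate 1 and 680 without young CLP replicate 1, so this count depended on single libraries.

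**Figure D5:**
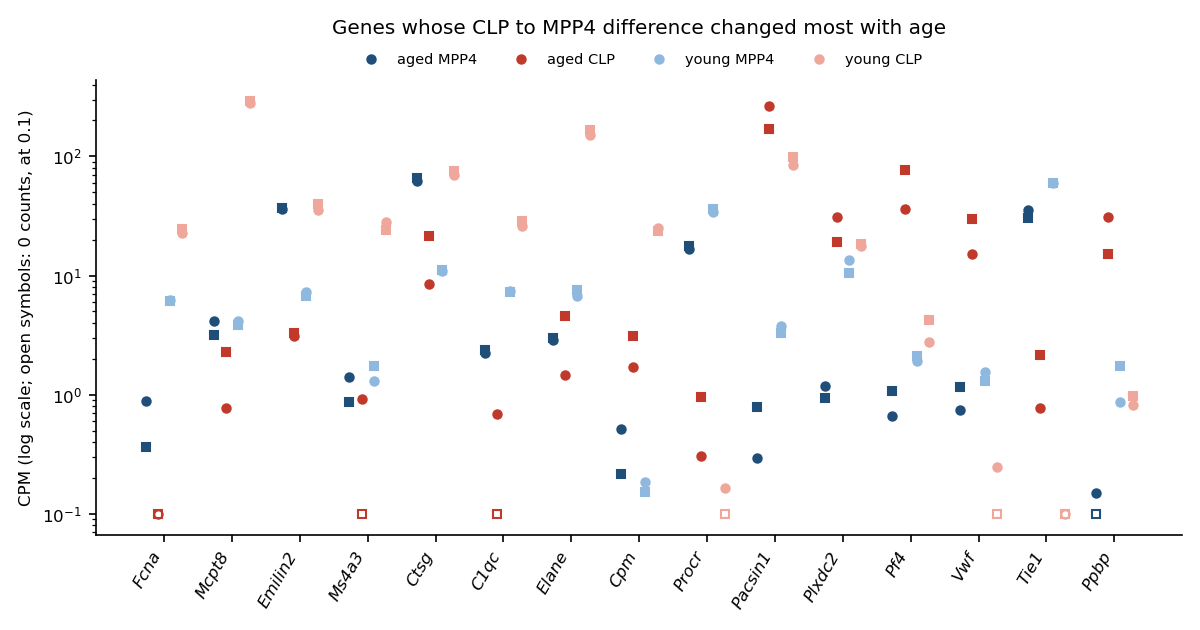
CPM on a log axis, with libraries at 0 counts as open symbols at 0.1, of 15 of the 16 genes with the largest called differences between the aged and the young step, in each of the 2 libraries of aged MPP4, aged CLP, young MPP4 and young CLP. Mcpt8, with a smaller step in aged mice, is high in young CLP (279 and 292 CPM) and low in aged CLP (0.772 and 2.30 CPM). Vwf, with a greater step, is at 15.3 and 29.6 CPM in aged CLP and at 0.247 and 0 CPM in young CLP. Tie1 and Procr also have a greater step, a smaller fall, and are low in aged CLP.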

How the data were processed

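RNA of sorted bone marrow cells was sequenced as single reads from SMARTer libraries without molecular identifiers. According to the submitters' processing notes, the authors aligned reads to mm10 with TopHat2 2.0.13 and Bowtie2 2.1.0 and counted them with StringTie, and strand use in the counting is not stated. The deposited table holds raw whole-number counts of 24421 genes in 32 libraries, which was used here. The deposited table of normalized values, and 8 tables with the authors' fold changes and p-values of aged against young cells, were not used. Names turned into dates took 0.192% of the counts.

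Counts were analysed with edgeR 4.0.16 (R 4.3.3) with TMM scaling, filterByExpr (14154 genes kept) and the quasi-likelihood test on 16 group means over all 32 libraries, with 16 residual degrees of freedom and a common biological coefficient of variation of 0.113. Calls had a Benjamini-Hochberg adjusted p under 0.01. The 3 comparisons were aged CLP against aged MPP4, young CLP against young MPP4, and their difference. The procedure was tested on simulated counts in which all genes had the same spread and only well-expressed genes were changed. The simulation does not cover genes with few reads or genes that differ in spread. Totals of 12471169 to 15140331 counts in the 8 libraries limited the precision for genes near 3 counts. Replicates carried numbers only, and the deviations of same-numbered libraries did not correlate (r = -0.014 to 0.024).

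The 4 libraries, the comparisons and 29 gene lists of 691 distinct genes were chosen with earlier results of these data known. Named were the 12 largest and the 12 smallest called changes, the 8 largest and the 8 smallest differences between ages (at least 20 CPM in a group and, for the former, no overlap), the sort antigens, and from each list up to 6 members with the largest change and members acting in the same step. Other list members were named after their values were seen, and some genes that the rule names are not reported here. Positions came from GENCODE M21 (GRCm38, 707 of 709 genes matched), and promoters from RefSeq. Alternatives were DESeq2 1.42.0 size factors and its Wald test, no filter on low counts, fits to 8 or 4 libraries, a replicate block, other thresholds, and leaving out each library.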

Additional observations from a re-analysis of the deposited data

Results flagged for a closer look

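A test of the difference between ages in the step from MPP4 to CLP was passed by 2499 genes, and those whose difference the report gives are listed here as log2 of the aged step minus the young step. Among genes of other lineages it was -7.38 for Mcpt8, -5.93 for Emilin2, -4.82 for Ctsg, -4.42 for Elane and -3.81 for Gata2. It was positive for the platelet gene Pf4 (5.21), for Plxdc2 (3.96), for the dendritic marker Pacsin1 (3.91) and for the chemokine receptor Ccr9 (2.90). For Mcpt8, Ctsg and Elane the young CLP libraries were the highest of the 8, and basophil and neutrophil markers were also high there. Gata2 is itself in the list of basophil and mast cell markers. The part of such cells was not tested.

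Among 31 immediate early and heat shock genes the difference was called negative for 15, such as -3.07 for Klf2, -2.89 for Dusp1, -2.60 for Egr1 and -2.38 for Fos, and positive for 3, which were 1.32 for Ier5, 1.19 for Btg2 and 0.39 for Dnajb1. Among cell cycle genes it was -1.61 for Rrm2, -1.27 for Pola1, -1.25 for Cdk1, -1.20 for Aurkb, -0.91 for Top2a, -0.90 for Mcm5 and -0.89 for Ccnd3, but 1.19 for Ccnd1. Metabolic genes gave -1.24 for Ldha, -1.14 for Cox5a and -1.05 for Cycs but 2.13 for Ldhb. Positive differences were called for 17 of 50 interferon response genes, 5 of 15 class II genes and 10 of 34 cytokine receptors, and negative ones for none. The others were not called. In the interferon list it was 2.13 for Irf7, 1.72 for Irf1 and 0.80 for H2-K1. Class II genes had 1.38 for H2-Oa, 1.27 for Ctss and 1.15 for H2-DMb1. Receptors had 1.67 for Il21r and 0.83 for Il10rb. The stem cell factor Lmo2 had 1.01.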

How the results depend on the processing

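The number of genes called between aged CLP and aged MPP4 stayed within 1.5 times of 5728 with DESeq2 size factors, the DESeq2 test, no filter on low counts, fits to the 8 or 4 libraries and at adjusted p under 0.05. Requiring at least 1 on the log2 scale left 2603 genes (1362 higher and 1241 lower), and in young mice 2668 (1146 and 1522). For the difference between ages 2499 genes became 1568 in the fit to 8 libraries (815 smaller in aged mice), 3812 at adjusted p under 0.05 (1744 greater) and 833 with at least 1 on the log2 scale (504 greater and 329 smaller), and the DESeq2 test called 1700 greater. Why these counts moved was not tested. Leaving out each library in turn gave 4285 to 5096 genes called in aged mice and 638 to 1071 greater differences. With the replicate number as a block 5742 genes were called in aged mice, 5910 in young mice and 2541 for the difference, and since the libraries share only a number the block does not pair animals. No named gene was reversed in direction in an alternative where it was called there or in the main fit. Changes of sign in genes called in neither were not counted. Of the 208 named genes tested, 18 lost their call in aged mice, 23 in young mice and 37 for the difference between ages in at least 1 alternative. In aged mice the loss was with the DESeq2 test only for Klk1, Cd209a, Cd209d, Upb1, Klra17, Pax5, Ms4a1 and Cd2, and in the fit to 4 libraries only for Cdk4 (adjusted p = 0.0103), Mcm5 (0.0116) and Ier5. Of the differences listed above, those of Ccnd1, Dnajb1 and Ier5 lost their call in at least 1 alternative, and that of Dnajb1 in 7.

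With 2 libraries a group the spread of each gene was borrowed from other genes and groups, and a left-out library left 1 library whose spread was assumed to be that of the others. Levels under about 3 counts per library were not separable from 0. Whether the duplicates came from 1 pool of marrow is not settled by the sources used here. The aged CLP duplicates differed in dendritic, neutrophil, platelet, erythroid and cell cycle genes, and values of those lists rest on both libraries.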

Other observations

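A few further members of the lists moved. Among the lymphoid transcription factors Bcl11a, a repressor needed for B cells, rose in aged mice from 162 and 168 CPM to 301 and 233 CPM (0.69 ± 0.0983 SE, adjusted p = 4.27e-06), and in young mice it was at 219.6 and 191 CPM in young MPP4 and 209 and 204 CPM in young CLP (0.01, not called). The interaction test called its difference between ages in the main fit but not in the fit to the 8 MPP4 and CLP libraries (adjusted p = 0.0173). Mycl, a MYC family member expressed by dendritic cells, was at 0.519 and 0.578 CPM in aged MPP4 and 257 and 159 CPM in aged CLP (8.54 ± 0.372 SE, adjusted p = 7.97e-12), while Myc was at 559 and 449 CPM in aged MPP4 and 371 and 409 CPM in aged CLP and was not called. Among the plasma cell genes Xbp1 was at 103 and 100.3 CPM in aged MPP4 and 494 and 409 CPM in aged CLP (2.15) and Jchain at 0.371 and 0.361 CPM in aged MPP4 and 53.8 and 92.2 CPM in aged CLP (7.61).

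The low-level T-lineage genes Cd2 and Il2ra had no read in aged MPP4 and were at 1.85 and 3.79 CPM and 2.63 and 2.08 CPM in aged CLP, compared with 17.8 and 19.1 CPM and 7.40 and 5.19 CPM in young CLP. Bcl11b, which commits cells to the T lineage, was at 0.154 and 0 CPM in aged CLP and 0.575 and 1.05 CPM in young CLP. None of these 3 genes passed the test of the difference between ages. For Cd2 and Il2ra, without a read in aged MPP4, the fitted size depends on the prior count. A missing call is therefore no sign that the steps were equal, and aged and young CLP were not compared directly.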
